A study of Mus musculus with 12 samples.

Results

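The 9 genes described here, Mttp, Tm6sf2, Hdlbp, Lcat, Lipc, Pltp, Scarb1, Lrp1 and Abca1, act in the assembly of lipoproteins in the liver cell or in the remodeling and uptake of lipoproteins in the blood. They were chosen by symbol from the 23420 gene symbols of the liver count tables, and all 9 had a row. Of these, 8 passed the filter on low counts, as 9806 genes did in the fit of all 4 groups, and Pltp did not. The livers came from Siah2 knockout (KO) and wild type (WT) mice on a C57BL/6 background, and Siah2 encodes an E3 ubiquitin ligase. There were 3 wild type females (WTF), 3 Siah2 KO females (KOF), 3 wild type males (WTM) and 3 Siah2 KO males (KOM), each named below by its mouse number. The KO mice were homozygous, no group received an agent, and both genotypes were kept as related lines descending from an intercross of heterozygotes. All mice ate normal chow under 12 h of light a day, were about 20 weeks old and were killed at ZT10, that is 10 h after lights on. The study asked which liver transcripts depend on SIAH2 in each sex.

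Lipoprotein assembly begins in the endoplasmic reticulum of the hepatocyte, where apolipoprotein B is loaded with triglyceride and phospholipid and leaves the cell as very low density lipoprotein. In the blood, lipases and transfer proteins strip and exchange lipid, an esterifying enzyme fills the core of high density lipoprotein with cholesterol ester, and receptors on liver cells take up remnants and cholesterol. The liver makes most of these proteins, and mouse liver is known to differ between the sexes in the transcripts of many genes of lipid metabolism.

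Each library held between 1293688 and 4056144 counts on genes. Values are in CPM, counts scaled to the library size by the TMM method, and since the QuantSeq method places reads near the 3′ end of a transcript they were compared between groups and not between genes. A gene is called here when its p from edgeR's quasi-likelihood test, adjusted by the Benjamini-Hochberg method over all genes tested, was under 0.05. Siah2 itself had 11.5 to 27.1 CPM in the wild type libraries and 9.42 to 17.4 CPM in the KO libraries, so the ranges overlapped. The sources used here do not say whether the deleted part holds the 3′ end that is read, so Siah2 does not check the labels. The 10 hepatocyte markers, Alb and Ttr among them, summed to between 34900 and 54500 CPM in every library, and of 6 pancreatic acinar markers 3 were at 0 throughout. Wild type female 1091 stood apart from the other wild type females. Its chi-square per degree of freedom was 47.9 and 51 against the other wild type females, while the other 10 pairs of mice of one group gave 7.45 to 25.1. In 1091 the 2294 genes with transcripts of 4520 bases or more had a median log2 deviation of −0.33 from the other wild type females and the 2294 with transcripts up to 1922 bases one of 0.11, where the other 11 libraries lay between −0.09 and 0.13 and between −0.16 and 0.09. Results in females are therefore given with and without 1091.

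**Figure D1:**
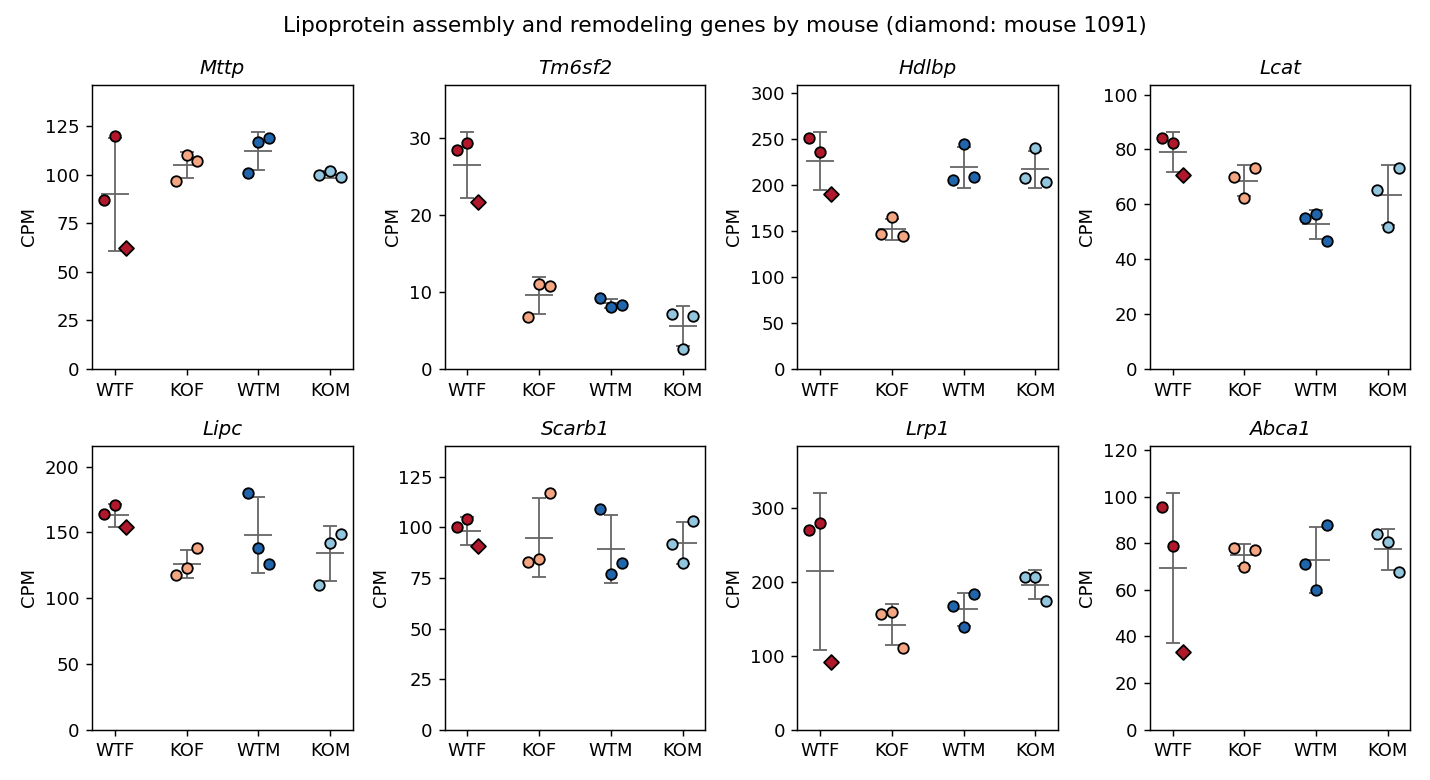
Level of 8 members in every mouse, in CPM from 0 (vertical axis), by group (horizontal axis). Points are mice, the diamond is wild type female 1091, and bars are the mean ± SD of 3 mice. Tm6sf2 lay between 21.7 and 29.4 CPM in WTF and at or under 11 CPM in every other mouse, and the diamond is the lowest point of WTF in each panel.

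Among the genes of particle assembly, Tm6sf2 had the widest separation between groups. Tm6sf2 encodes a membrane protein of the endoplasmic reticulum that is needed for normal lipid loading of very low density lipoprotein, and it lies at chr8:70072924-70080066 (GRCm38.p6, plus strand). In wild type females it was 28.5 CPM in 1089, 29.4 in 1090 and 21.7 in 1091. In Siah2 KO females it was 6.76 CPM in 1070, 11 in 1104 and 10.8 in 1105. All KO females were thus below all wild type females. In wild type males Tm6sf2 was 9.17 CPM in 1055, 8.04 in 1086 and 8.36 in 1087. In Siah2 KO males it was 7.16 CPM in 1075, 2.6 in 1076 and 6.9 in 1081, each below the lowest wild type male. The group means ran from 26.5 ± 4.24 CPM (SD, n = 3) in WTF over 9.55 ± 2.41 in KOF and 8.52 ± 0.584 in WTM to 5.56 ± 2.56 in KOM. In this order KOF and WTM overlapped, as did KOF and KOM, while WTF overlapped with no other group. These levels rest on 68 to 98 counts per library in WTF, 18 to 30 in KOF, 12 to 27 in WTM and 6 to 28 in KOM, and counting error limits the precision most in the last 3 groups.

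Mttp encodes the microsomal triglyceride transfer protein, which hands lipid to nascent apolipoprotein B, and lies at chr3:138089855-138143418 on the minus strand. It was 87 CPM in WTF 1089, 120 in 1090 and 62.4 in 1091. The KO females 1070, 1104 and 1105 had 96.9, 110 and 107 CPM, inside the range of wild type females. In males Mttp was 101, 117 and 119 CPM in wild type mice 1055, 1086 and 1087. The KO males 1075, 1076 and 1081 had 99.9, 102 and 98.8 CPM, with a coefficient of variation of 1.61%, against 32.2% in WTF. The range of the wild type females covered that of each other group.

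Hdlbp encodes vigilin, an RNA-binding protein of liver cells that binds messages translated at the endoplasmic reticulum, and lies at chr1:93405940-93478917 on the minus strand. It was 251 CPM in WTF 1089, 236 in 1090 and 190 in 1091. The KO females had 147, 165 and 145 CPM, all below the wild type females and below every male. In males it was 205, 245 and 209 CPM in wild type mice and 208, 240 and 203 CPM in KO mice, with overlapping ranges. The group means were 226 ± 31.3 CPM in WTF, 219 ± 22.1 in WTM, 217 ± 20.2 in KOM and 152 ± 11.3 in KOF (SD, n = 3 each), so the first 3 groups did not differ beyond their spread and KOF stood below them.

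Among the genes of remodeling in the blood, Lcat encodes lecithin-cholesterol acyltransferase, which esterifies the cholesterol of high density lipoprotein, and lies at chr8:105939551-105943402 on the minus strand. Lcat was 84.1, 82.2 and 70.7 CPM in WTF, 70.1, 62.2 and 73.4 CPM in KOF, 55, 56.3 and 46.7 CPM in WTM and 65.2, 51.7 and 73.4 CPM in KOM. Every wild type female was above every wild type male, and the KO groups of both sexes overlapped with each other. Lipc encodes hepatic lipase, which hydrolyses triglyceride and phospholipid of remnants and high density lipoprotein, and lies at chr9:70798128-70952221 on the minus strand. Lipc was 164, 171 and 154 CPM in WTF and 118, 123 and 138 CPM in KOF, so these groups did not overlap. In males it was 180, 138 and 126 CPM in WTM and 110, 142 and 149 CPM in KOM, which overlapped.

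Pltp encodes the phospholipid transfer protein and lies at chr2:164839518-164857708 on the minus strand. It had 0 counts in 8 of 12 libraries and 8 counts in all, of which 4 were in WTM 1086, 2 in KOF 1104 and 1 each in WTF 1089 and KOM 1075. A count of 0 allows up to 3 counts, or 0.739 to 2.29 CPM depending on the library, for counting error alone. Differences of Pltp between the groups were not detectable at these counts. Its 3′ end shares 1515 bases with Ctsa, which runs toward it from the other side and had 841 counts in all, and the sources used here do not say whether reads were counted by strand. Reads of Pltp and Ctsa in the shared stretch may have been assigned to either gene or to none.

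Of the receptors and the exporter, Scarb1 encodes the receptor through which hepatocytes take cholesterol ester from high density lipoprotein, and lies at chr5:125277087-125341094 on the minus strand. Scarb1 was 100, 104 and 90.8 CPM in WTF, 82.8, 84.3 and 117 CPM in KOF, 109, 76.9 and 82.6 CPM in WTM and 91.6, 82.5 and 103 CPM in KOM. All 4 groups overlapped. Lrp1 encodes a large endocytic receptor for remnants and lies at chr10:127538157-127621148 on the minus strand. It was 270 CPM in WTF 1089 and 280 in 1090 but 91.7 in 1091, which was the lowest of the 12 mice. The KO females had 157, 159 and 111 CPM, between 1091 and the other wild type females. In males Lrp1 was 167, 139 and 183 CPM in wild type and 207, 207 and 174 CPM in KO mice. Abca1 encodes the transporter that passes cholesterol and phospholipid to apolipoprotein A-I, and lies at chr4:53030789-53159988 on the minus strand. Abca1 was 95.7, 78.9 and 33.4 CPM in WTF, 77.9, 69.6 and 77.1 CPM in KOF, 71.1, 59.8 and 87.9 CPM in WTM and 84.1, 80.3 and 67.5 CPM in KOM. Mouse 1091 again held the lowest value, and the ranges of the 4 groups overlapped.

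Hdlbp and Lrp1 are the members besides Tm6sf2 whose test in females turned on mouse 1091, and the sequence just before the annotated start of each is shown for these genes from RefSeq on GRCm38.p6, 5′ to 3′ on the minus strand. For Lrp1 it is the 250 bases of chr10:127621149-127621398, with 67.2% G and C. For Hdlbp it is the 63 bases of chr1:93478918-93478980, with 69.8% G and C, between Hdlbp and Septin2. As printed, its first base lies next to Septin2, annotated from base 93478981 onward, and its last base next to Hdlbp.
Lrp1: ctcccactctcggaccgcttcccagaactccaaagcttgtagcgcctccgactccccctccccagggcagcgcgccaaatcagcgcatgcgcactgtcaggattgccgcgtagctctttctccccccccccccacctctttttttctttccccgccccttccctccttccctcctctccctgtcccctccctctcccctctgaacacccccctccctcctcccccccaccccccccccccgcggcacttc
Hdlbp: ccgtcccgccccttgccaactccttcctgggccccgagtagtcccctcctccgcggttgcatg
Capitals would mark CACGTG, the E-box bound by clock activators, or the half-site AGGTCA bound by REV-ERB and other nuclear receptors, each searched on both strands, and both stretches hold none. The table of promoters had windows for 7 of the 9 members, 10 windows in all. Over the 250 bases before each start, CACGTG was in 6.02% of all 32851 windows and among the members in a window of Hdlbp further inside the gene and in that of Abca1. AGGTCA was in 14% of all windows and among the members in 1 of the windows of Lipc.

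Within females, the levels of 6 of the 8 tested members were lower in KOF than in WTF, with a median log2 difference of −0.30 where the median of all genes tested was −0.03. By edgeR 0 of 8 members were called, as were 0 of 9465 genes (0%). At an unadjusted p under 0.05, Tm6sf2 and Hdlbp were lower, 2 of 8, while 8.31% of all genes tested were. The log2 difference of Tm6sf2 was −1.51 (standard error 0.30, a level 0.352 times that of WTF), and edgeR gave an adjusted p of 0.0962. DESeq2 called Tm6sf2 alone of the members, with an adjusted p of 0.0101, and called 3.6% of the genes it gave an adjusted p. Over 15 alternative settings the log2 difference of Tm6sf2 stayed between −1.68 and −1.11 and its adjusted p between 0.00297 and 0.351. The log2 differences of Hdlbp (−0.58, standard error 0.22, adjusted p = 0.234 by edgeR), Lrp1 (−0.60, standard error 0.38, adjusted p = 0.497) and Lipc (−0.38, standard error 0.21, adjusted p = 0.412) did not pass. Those of Lcat (−0.22), Scarb1 (−0.07), Abca1 (0.10) and Mttp (0.21) were within about 1 standard error of 0. By their ranges, Tm6sf2, Hdlbp and Lipc were lower in every KO female than in every wild type female, 3 of 8 members, as were 11.9% of all genes.

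Without mouse 1091, edgeR called 3 of 8 members lower in KOF, where 4.43% of all genes were called lower. Tm6sf2 then fell by 1.64 on the log2 scale (standard error 0.28, adjusted p = 0.00705), Lrp1 fell by 0.94 (standard error 0.19, adjusted p = 0.0152) and Hdlbp fell by 0.67 (standard error 0.17, adjusted p = 0.031). The adjusted p of Hdlbp ranged from 0.0261 to 0.52 and that of Lrp1 from 0.0152 to 0.764 over the alternatives. With any other female left out, edgeR called 0 of 8 members, as it called 0 of all genes tested. The estimate of Lrp1 moved with 1091 from −0.60 to −0.94 on the log2 scale, that of Abca1 from 0.10 to −0.22, and that of Mttp from 0.21 to 0.01. Without 1090, Mttp was at 0.47. By edgeR neither Abca1 nor Mttp was called in any of these fits.

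**Figure D2:**
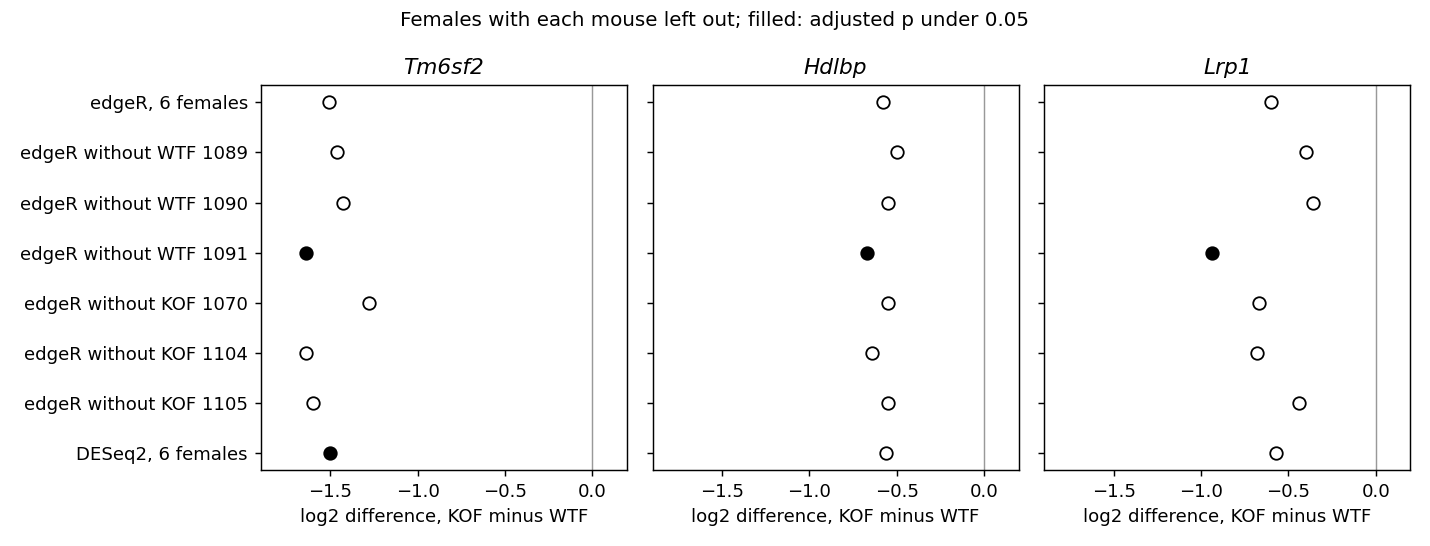
Log2 difference between KOF and WTF (horizontal axis) of Tm6sf2, Hdlbp and Lrp1 with all 6 females, with each female left out in turn, and by DESeq2 (vertical axis). Filled points have an adjusted p under 0.05. All points are below 0, and by edgeR the filled ones are those without wild type female 1091.

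Mouse 1091 departed from WTF 1089 and 1090 most at Lrp1 and Abca1, the members with the longest transcripts. Lrp1, with a longest coding transcript of 14888 bases in GENCODE M1, was at 0.336 of the mean of the other wild type females in 1091 (CPM + 1). Abca1, with 10262 bases, was at 0.39, and Mttp, with 4272 bases, was at 0.607. The 3 members up to 1919 bases, Lcat, Tm6sf2 and Lipc, were at 0.852, 0.756 and 0.916, Scarb1 at 0.89 and Hdlbp, with 6238 bases, at 0.785. The library thus read lower at all 8 members, and the part of transcript length in the results for Lrp1, Abca1 and Mttp was not tested.

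**Figure D3:**
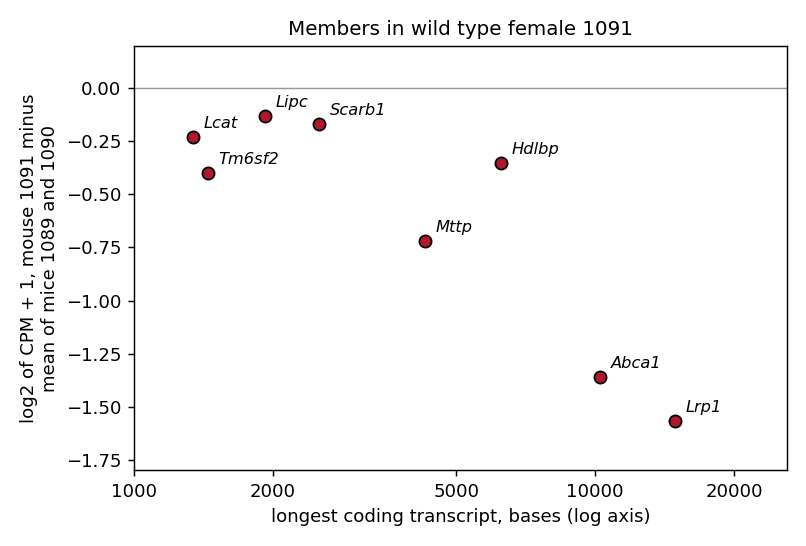
Log2 ratio of CPM + 1 in wild type female 1091 to the mean of wild type females 1089 and 1090 (vertical axis) against the length of the longest coding transcript in bases (horizontal log axis), 1 point for each of 8 members. Abca1 and Lrp1, with the longest transcripts, are the lowest points, at −1.36 and −1.57.

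The 9 markers of stellate cells and fibroblasts, of which none was at 0 throughout, summed to 413, 427 and 282 CPM in WTF 1089, 1090 and 1091. In KOF 1070, 1104 and 1105 they summed to 317, 282 and 238 CPM. Within WTF this sum was lower in 1091 than in 1089 and 1090, as was that of bile duct markers (9.87 against 45.1 and 25.2 CPM). Of the 5 bile duct markers, 2 passed the filter on low counts. The sum of endothelial markers was higher in 1091 (404 against 319 and 329 CPM). The 10 markers of liver endothelial cells, none at 0, summed to 319 to 404 CPM in WTF and 291 to 315 CPM in KOF without overlap. The 6 lymphocyte markers, none at 0 throughout but only 1 past the filter on low counts, gave 10.5 to 14.1 and 6.63 to 9.63 CPM. The red blood cell list, in which the 4 globins were at 0, gave 20.1 to 25.2 and 8.47 to 19.3 CPM. The hepatocyte sums overlapped, at 47600 to 50200 CPM in WTF and 43200 to 54500 in KOF, as did those of Kupffer cells and macrophages, at 510 to 691 and 381 to 867 CPM. The part of these cell types in the results was not tested, and in whole liver fewer cells of a type and less RNA per cell cannot be told apart.

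Within males, by edgeR 0 of 8 members were called, as were 0 of 8823 genes (0%), and 4 members were higher and 4 lower in KOM. The largest log2 difference was that of Tm6sf2, −0.58 (standard error 0.41, adjusted p = 1 by edgeR). Lcat was at 0.27 (standard error 0.19), Lrp1 at 0.25 (0.16), Mttp at −0.18 (0.16) and Lipc at −0.15 (0.18) on the log2 scale, and Hdlbp, Scarb1 and Abca1 were within 0.06 of 0. None had an unadjusted p under 0.05, by edgeR or by DESeq2. Tm6sf2 was lower in every KO male than in every wild type male, 1 of 8 members, as were 4.42% of all genes. Of the marker lists, bile duct (47.4 to 56.3 CPM in WTM and 27.8 to 36.2 in KOM) and fat cell (1.01 to 2.48 and 3.47 to 26.4 CPM) did not overlap between WTM and KOM. Of the 4 fat cell markers Plin1 was at 0 and 0 passed the filter on low counts, so these sums rest on few counts. Of the 5 bile duct markers, 2 passed that filter. The part of both lists in the level of Tm6sf2 was not tested. With both sexes combined, edgeR called 0 of 8 members and 0.0111% of all genes. DESeq2 called 0 of 9 members and 1 of 17872 genes. The log2 difference of Tm6sf2 between 6 KO and 6 WT mice was −1.27 (standard error 0.39, unadjusted p = 0.00479 and adjusted p = 0.866 by edgeR), and that of Hdlbp −0.28 (standard error 0.16).

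Whether the change in females differed from that in males was tested as a contrast of its own, KOF minus WTF set against KOM minus WTM. By edgeR 0 of 8 members passed, and 0.255% of all genes did. The unadjusted p was under 0.05 for Hdlbp alone, which was lower, where 6.98% of all genes were lower and 7.12% higher. DESeq2 called 0 of 8 members, where it called 265 of 7648 genes. The difference was −0.93 for Tm6sf2 (standard error 0.49, adjusted p = 0.416 by edgeR), −0.85 for Lrp1 (standard error 0.44, adjusted p = 0.416) and −0.55 for Hdlbp (standard error 0.26, adjusted p = 0.35) on the log2 scale. For Lcat it was −0.48 (standard error 0.27) and for Mttp 0.38 (standard error 0.30), and the other members were nearer to 0. Without mouse 1091, Lrp1 alone of the 8 was called, with a difference of −1.20 (standard error 0.25, adjusted p = 0.0138 by edgeR, range over alternatives 0.0138 to 0.61), where 2.06% of all genes were called lower. The change of Tm6sf2 in females was not shown to differ from that in males, and over 19 alternatives its difference between the sexes had an adjusted p of 0.174 to 0.886.

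**Figure D4:**
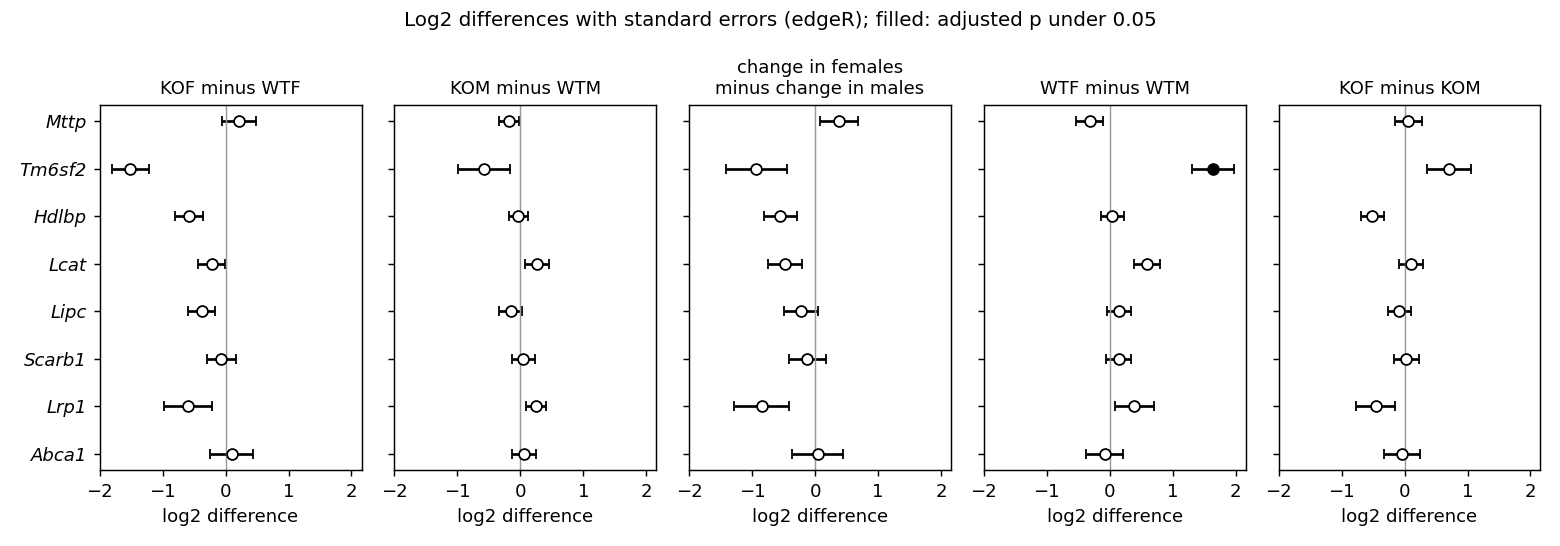
Log2 differences with standard errors (horizontal axis) of 8 members (vertical axis) in 5 comparisons, by edgeR with all mice. The only filled point, with an adjusted p under 0.05, is Tm6sf2 in WTF minus WTM, at 1.64.

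Between the sexes of wild type mice, Tm6sf2 was higher in females, by 1.64 on the log2 scale (standard error 0.33, 3.12 times the level of males), and passed by edgeR (adjusted p = 0.00849). It was the only 1 of 8 members called, and 5.15% of all genes were. The call held in all 20 alternatives that could test Tm6sf2, 12 of them with a mouse left out, with log2 differences of 1.43 to 1.77 and adjusted p of 0.000281 to 0.0468. The filter of 10 counts in every library removed Tm6sf2, which had 6 counts in KOM 1076. Tm6sf2 and Lcat were higher in every wild type female than in every wild type male, 2 of 8 members, as were 11.5% of all genes. The log2 difference of Lcat was 0.59 (standard error 0.20, 1.5 times the level of males), and its adjusted p was 0.097 by edgeR and from 0.0231 to 0.278 over the alternatives. Without mouse 1091, Lcat (0.66, adjusted p = 0.0347 by edgeR) and Lrp1 (0.75, adjusted p = 0.0154, range over alternatives 0.0154 to 0.824) were called higher in females besides Tm6sf2, where 4.29% of all genes were called higher. With all mice, Lrp1 was at 0.39 (standard error 0.31, adjusted p = 0.526 by edgeR), and the remaining members had log2 differences between −0.32 for Mttp and 0.14 for Lipc and Scarb1. In the same mice the hepatocyte markers summed to 47600 to 50200 CPM in WTF and 34900 to 47400 in WTM, and the endothelial list to 319 to 404 and 239 to 310 CPM. The bile duct list, with none of 5 markers at 0 throughout and 2 past the filter on low counts, gave 9.87 to 45.1 CPM in WTF and 47.4 to 56.3 in WTM. The red blood cell list, a sum of 1 gene with its 4 globins at 0, gave 20.1 to 25.2 and 83.9 to 105 CPM. The lymphocyte list, with 1 of 6 markers past the filter on low counts, gave 10.5 to 14.1 CPM in WTF and 2.79 to 6.03 in WTM. Their part in the differences of Tm6sf2 and Lcat was not tested.

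The same contrast in KO mice, which was added after the values of Tm6sf2 had been seen, gave a smaller log2 difference for Tm6sf2. It was 0.71 (standard error 0.35, adjusted p = 0.306 by edgeR) and lay between 0.41 and 1.12 over 19 alternatives, with an adjusted p of 0.195 to 0.609. The gap between this contrast and that in wild type mice is the same quantity as the difference between the sexes above, which did not pass. By edgeR 0 of 8 members were called in KO mice, and 3.59% of all genes were. At an unadjusted p under 0.05, 1 member was lower in females, as were 896 of 9806 genes. Hdlbp and Lrp1 were lower in every KO female than in every KO male, 2 of 8 members, as were 15.3% of all genes. The log2 difference of Hdlbp was −0.51 (standard error 0.18), and its adjusted p was 0.141 by edgeR and from 0.0337 to 0.368 over the alternatives. DESeq2 called Hdlbp (adjusted p = 0.0479), with 5.45% of all genes called. So did edgeR without mouse 1091 (−0.50, adjusted p = 0.0407), with 4.75% of all genes called lower. Mouse 1091 is in neither KO group, and leaving it out acts on this contrast only through the fit shared by the 4 groups. Lcat, at 0.11 (standard error 0.19), did not separate KO females from KO males, whose ranges were 62.2 to 73.4 and 51.7 to 73.4 CPM. Between KO females and KO males the sums of 6 marker lists did not overlap. Hepatocyte markers gave 43200 to 54500 CPM in KOF and 35300 to 40600 in KOM, Kupffer cell and macrophage markers 381 to 867 and 116 to 265 CPM, and endothelial markers 291 to 315 and 232 to 268 CPM. The lymphocyte list, with 1 of 6 markers past the filter on low counts, gave 6.63 to 9.63 and 1.88 to 5.64 CPM. The red blood cell list gave 8.47 to 19.3 and 103 to 154 CPM, but with its 4 globins at 0 this sum is that of 1 gene. The fat cell list gave 0 to 0.602 and 3.47 to 26.4 CPM, with 0 of its 4 markers past the filter on low counts. Their part in the levels of Hdlbp and Lrp1 was not tested.

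Across the 12 mice the members did not form a single pattern. Over the 28 pairs of 8 members, Pearson's r of log2 CPM ran from −0.33 to 0.75 with a median of 0.12. The mice share their sex and genotype within groups, so these values are descriptions. The pair most alike was Abca1 and Lrp1, at 0.75 over 12 mice and 0.58 over 11 mice without 1091. Abca1 and Mttp were at 0.66, which became −0.37 without 1091. Tm6sf2 was most like Lcat among the members, at 0.67 with and without 1091, and Hdlbp was most like Lrp1, at 0.59 and 0.67. Among all genes, Emd and Vps29 were most like Tm6sf2, at 0.97 and 0.92. Tmem30a and Prmt3 were both at 0.93 with Hdlbp, Csnk1g2 and Pcf11 at 0.94 and 0.92 with Lrp1, and 1110034G24Rik and Trim11 at 0.94 and 0.90 with Lcat. For Scarb1 these genes were Cdkal1 and Ctdspl2, at 0.90 and 0.83, and for Lipc Ifnar2 and Pigp, both at 0.88. For Abca1 they were Cops7a and Tbc1d8b, at 0.93 and 0.92 but 0.63 and 0.59 without 1091, and for Mttp Zcchc10 and Baiap2l1, at 0.93 and 0.92 but 0.77 and 0.79 without 1091.

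Other genes of lipoprotein metabolism, from apolipoproteins and transport out of the endoplasmic reticulum to lipases and receptors, were followed beside the members, 44 of them tested. In females edgeR called 0 of 44, with 7 lower and 2 higher at an unadjusted p under 0.05, where 8.31% and 7.3% of all genes were. The median log2 difference was −0.21 in the list and −0.03 over all genes. The 3 with the smallest p were Apob, Mia3 and Pla2g12b. Apob encodes the protein that Mttp and Tm6sf2 help to load with lipid, and it was 336 ± 165 CPM in WTF and 147 ± 24.3 in KOF (SD, n = 3), and edgeR put the adjusted p at 0.182 and DESeq2 at 0.0476. Its log2 difference of −1.20 (standard error 0.38) became −1.55 without mouse 1091 (adjusted p = 0.00214 by edgeR). Mia3, which helps bulky cargo leave the endoplasmic reticulum, was 263 ± 51.2 CPM in WTF and 158 ± 18 in KOF (adjusted p = 0.183 by edgeR). Its log2 difference of −0.75 became −0.89 without 1091 (adjusted p = 0.0121 by edgeR). Pla2g12b, an endoplasmic reticulum protein of lipoprotein assembly, was 60.3 ± 2.75 CPM in WTF and 36.8 ± 7.77 in KOF (adjusted p = 0.194 by edgeR). Without 1091, edgeR called 5 of 43 genes of the list in females, 2 lower and 3 higher, where it called 4.43% of all genes lower and 5.21% higher. Those lower were Apob and Mia3. Those higher were 2 apolipoproteins, Apoa5 (1.32, with all mice 0.65) and Apoa2 (0.73, with all mice 0.34), and a phospholipase of the plasma, Gpld1 (with all mice 0.48), with adjusted p of 0.00826 to 0.0455 by edgeR. In males edgeR called 0 of 43, 1 of them higher and 1 lower at an unadjusted p under 0.05, where 1.62% and 2.43% of all genes were. DESeq2 called 0 of 45 in males, where it called 6 of 16219 genes.

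For the difference between the sexes, edgeR called 0 of 44 genes of this list, with 5 lower and 2 higher at an unadjusted p under 0.05, where 6.98% and 7.12% of all genes were. DESeq2 called 0 of 39, where it called 265 of 7648 genes. Apob, with −1.53 (standard error 0.50) on the log2 scale, Abcg8, a subunit of a sterol exporter, with −0.84 (standard error 0.27), and the regulator Srebf2, with −2.64 (standard error 0.86), had the smallest p, and for each of them edgeR gave an adjusted p of 0.173. Without 1091, edgeR called 5 of 44, where 2.06% of all genes were called lower and 3.09% higher. Apob (−1.87, adjusted p = 0.00685 by edgeR) and Mia3 (−1.04, adjusted p = 0.0318) were then lower, and Apoa2, Apoa5 and Gpld1 higher. Between wild type females and males edgeR called 5 of 44, against 5.15% of all genes. Apom (1.78), Pon1 (1.10), Pla2g12b (1.04) and Dgat2 (0.75) were higher in females on the log2 scale and Lpl (−1.28) was lower, with adjusted p of 0.000535 to 0.0494 by edgeR. Without 1091 the call of Dgat2 was lost (0.56, adjusted p = 0.0586 by edgeR) and 10 of 44 were called, 6 higher and 4 lower in females, where 4.29% and 6.01% of all genes were. Apob (1.17), Abcg5 (0.69), Mia3 (0.64), P4hb (−0.82), Surf4 (−0.74) and Gpld1 (−0.66) were those added. With all mice, DESeq2 called 6 of 45, where it called 742 of 10375 genes. These were the 5 that edgeR called with all mice, and Sec24d, lower in females (−1.44, adjusted p = 0.0265). Pla2g12b was 60.3 ± 2.75 CPM in WTF and 29.4 ± 4.53 in WTM. In KO mice edgeR called 3 of 44, against 3.59% of all genes, Apom (2.33) and Vldlr (2.54) higher and Lpl (−1.32) lower in females. DESeq2 called Pon1, Apoa4 and Sort1 too, against 5.45% of all genes. Vldlr was 9.02 ± 1.81 CPM in KOF and 1.66 ± 1.57 in KOM, and Sort1 was 2.31 ± 1.16 and 8.48 ± 1.98 CPM. The lower group of each was thus close to the limit of 0.739 to 2.29 CPM for a count of 0. Without 1091, which enters this contrast only through the shared fit, edgeR called 8 of 44 in KO mice. Of all genes 4.85% were called higher and 4.75% lower. The genes of the list added were Pon1, Apoa4, Apoa5 and Sec23a, higher, and Sort1, lower. Of 13 transcription regulators of these genes, Nr1h3 and Hnf4a among them, edgeR with all mice called 0 in each of the 6 comparisons. At an unadjusted p under 0.05, 2 were lower in females and 0 in males, where 8.31% and 2.43% of all genes were. DESeq2 called 1, Nr1h4, higher in KO females than in KO males (0.58, adjusted p = 0.0497), against 5.45% of all genes. Without 1091, edgeR called 2 of the 13 lower in females, where 4.43% of all genes were. They were Srebf2 (−2.14, adjusted p = 0.0266), an activator of cholesterol synthesis genes, and Nr0b2 (−2.39, adjusted p = 0.0121), a nuclear receptor that represses other receptors. Both were also called lower for the difference between the sexes (Srebf2 −2.99, adjusted p = 0.0357 by edgeR, and Nr0b2 −2.84, adjusted p = 0.0234), where 2.06% of all genes were. Srebf2 was then called higher in wild type females than in wild type males (2.16, adjusted p = 0.0194 by edgeR), where 4.29% of all genes were. In KO mice Nr1h4 was then called higher (0.59, adjusted p = 0.0303 by edgeR) and Nr0b2 lower (−1.82, adjusted p = 0.0242) in females, where 4.85% and 4.75% of all genes were. The calls of Srebf2 rest on low and widely spread levels, 5.73 to 26.4 CPM in all of WTF, 2.21 to 6.02 in KOF, 3.71 to 4.02 in WTM and 3.45 to 12.6 in KOM.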

How the data were processed

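Liver messages of 12 mice were read from their 3′ ends (Lexogen QuantSeq). Trimming, mapping and counting were done by the authors in Illumina BaseSpace, and the deposited tables, 1 for each sex, hold whole-number read counts per gene symbol that were not normalized. The submitters' processing notes also name STAR, DESeq and the build mm10, without version. For the strand setting and the annotation of the counting, nothing is given in the sources used here. By the labels RNA of 3 mice was pooled, by the paper livers were profiled singly, and each library was treated as 1 mouse. Where libraries were pools, p-values would measure the spread between pools.

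Columns were matched to samples by mouse number, and 0 columns of values were left unmatched. Two-sided quasi-likelihood tests were run with edgeR 4.0.16 under R 4.3.3 after filterByExpr and TMM scaling, and p-values were adjusted by the Benjamini-Hochberg method. The within-sex and combined comparisons used only their own mice, and the others used a fit of 4 groups. CPM are from TMM scaling of all 12 libraries, and log2 CPM had a prior count of 3. Alternatives were DESeq2 1.42.0, limma-voom with limma 3.58.1, with and without quality weights, RLE scaling, no Rn45s, a filter of 1 count in all or of 10 counts in each library, libraries thinned to the smallest total, other samples or a sex term in the fit, and each mouse left out. Standard errors of edgeR were taken as the log2 fold change over the square root of F. The code was tested on simulated data with known changes. Replicates differed by more than sampling noise, so none was merged. Positions and promoters are RefSeq on GRCm38.p6, and transcript lengths and strands are from GENCODE M1 on another build. Figures used Python 3.11.15 with pandas 2.3.3 and matplotlib 3.10.9.

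The members, gene lists and tests were chosen with earlier results of these data known. All members were named, and of the other lists the genes that edgeR or DESeq2 called, the 3 with the smallest p in females and the 3 for the difference between the sexes. For likeness, the 2 genes with the highest r were named. The genes that edgeR called only without 1091, and the comparison of KO females with KO males, were taken up after values were seen. Reads carried no molecular identifiers, so the limit for Pltp covers counting error only.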

Additional observations from a re-analysis of the deposited data

How the results depend on the processing

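No paired analysis was possible because each mouse has a number of its own and the groups share none. Of 686 values of single members under alternative settings, 645 kept their direction and their side of the threshold, 18 newly passed it, 0 lost it and 23 changed sign, and the cause was not tested. The number of members called in females was 0 by edgeR but 1 by DESeq2, with no filter beyond 1 count and in the fit of all 4 groups, 3 by limma-voom with quality weights, and 0 to 3 with each mouse left out, the 3 without 1091. For the difference between the sexes it was 1 with quality weights and 0 to 1 with a mouse left out. Between wild type females and males it was 3 with quality weights, 1 to 3 with a mouse left out, and 0 with at least 10 counts in every library, a filter that removes Tm6sf2. Between KO females and males it was 1 by DESeq2 and with quality weights and 0 to 1 with a mouse left out. In males and with both sexes combined it was 0 throughout.

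Over all genes, females gave 0 calls by edgeR against 301 by DESeq2, 1058 with quality weights, 484 without the filter, 6 with thinned libraries, 427 in the fit of all 4 groups, and 0 to 936 with a mouse left out. Males gave 0 against 6 by DESeq2, 29 without the filter and 0 to 3 with a mouse left out. Both sexes combined gave 1 against 0 by limma-voom, with quality weights and with thinned libraries, and 0 to 1 with a mouse left out. The difference between the sexes gave 25 against 265 by DESeq2, 558 with quality weights, 325 without the filter and 0 to 522 with a mouse left out. The wild type mice gave 505 against 1130 with quality weights, 802 without the filter, 130 when fitted alone and 201 to 1043 with a mouse left out. The KO mice gave 352 against 1186 with quality weights, 664 without the filter and 150 to 972 with a mouse left out. The highest number with a mouse left out was that without 1091 in females, in the difference and in both contrasts of the sexes.

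The changes of sign were of log2 differences near 0, none of them called. With quality weights, Abca1 became −0.18 in females, 0.19 between WTF and WTM and −0.23 for the difference between the sexes. With thinned libraries, Abca1 became −0.03 for the difference between the sexes and Lcat became −0.12 between KO females and males. The others came from leaving out 1 mouse. In females, Scarb1 then ran from −0.25 to 0.03 and Abca1 from −0.22 (without 1091) to 0.40. In males, Hdlbp ran from −0.10 to 0.08, Scarb1 from −0.02 to 0.21, Lipc from −0.25 to 0.02 and Abca1 from −0.05 to 0.24. For the difference between the sexes, Abca1 ran from −0.28 (without 1091) to 0.34. Between wild type females and males, Hdlbp ran from −0.04 to 0.15 and Abca1 from −0.38 to 0.25 (without 1091), and between KO females and males Lcat ran from −0.02 to 0.24. Low counts limit Pltp, which did not pass edgeR's filter on low counts, and Tm6sf2 in males, with 6 to 28 counts per library. The part of depth and of the stretch shared with Ctsa in the counts of Pltp was not tested. With 3 mice in a group, a difference that did not pass is not shown to be absent.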
